A study of Homo sapiens with 3 samples.

Results

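The 45 protein-coding genes of the human ATP-binding cassette (ABC) family whose symbols run from ABCA to ABCG were followed in MDA-MB-231 tumorspheres, out of 57773 genes in the deposited tables. They were taken by symbol alone, a rule set with earlier results of these data known, and 43 of them are reported singly. MDA-MB-231, a widely used cell line of human triple-negative breast cancer, was grown in plates of very low adhesion, where the cells form floating clusters called tumorspheres, in medium with epidermal growth factor, B27 and insulin. There was 1 library of ribosomal RNA-depleted total RNA for each of 3 groups at 24 h: wild-type spheres given the compound with the code name M2 at 10 µM, wild-type spheres transfected with LINC00273, a long non-coding RNA, in a pcDNA plasmid driven by the CMV promoter, and untreated wild-type spheres. The control is untreated, and no library of empty plasmid or vehicle was analysed here. Judged by its title, the study concerned a G-quadruplex of LINC00273 that holds microRNAs, and its bearing on metastasis, stemness and drug resistance.

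ABC proteins bind and split ATP through a pair of shared nucleotide-binding domains, and most use that cycle to move a substrate across a membrane. Most A and G members move sterols and phospholipids, and several B and C members pump drugs and conjugates out of the cell. Other B members sit in mitochondria, and the D group brings fatty acyl-CoA into peroxisomes or works in lysosomes. The E and F members have no membrane part and act on ribosomes in the cytosol. In breast cancer the family is best known for the efflux pumps ABCB1, ABCC1 and ABCG2, which can lower the level of chemotherapy inside a cell.

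The ABC genes held few reads: 4609 in the M2 library, 4287 with labelled LINC00273 overexpression and 4314 in the control, which is 0.0982%, 0.0837% and 0.0500% of the reads of each. Total reads were 4695535, 5123199 and 8620534 in that order of libraries, and the RNAs RN7SL1 and RN7SK alone took 39.3%, 42.8% and 54.7% of them. LINC00273 had 0 reads in all 3 libraries, so overexpression is taken from the label alone. Of 10 genes known from this line, 7 had at least 20 reads in each library, among them VIM (4182, 8910 and 11763 reads) and CD44 (29, 44 and 86). TGFBI (0, 11 and 10), ANXA1 (15, 4 and 13) and CAV2 (4 in each) were nearly absent. Of 8 genes listed beforehand as low or absent in the line, 1, 2 and 2 had at least 20 reads. These were ERBB2 (33, 50 and 61) and, outside the M2 library, FOXA1 (10, 42 and 48). Of 10 blood genes, HBB had 5417 reads in the M2 library, 9 in the labelled LINC00273 library and 4860 in the control, and the list summed to 1421, 7.82 and 821 CPM (defined below). The 7 fibroblast markers summed to 52, 105 and 102 reads with LUM at 0 throughout, and the 6 liver and kidney markers, from organs rich in ABC transporters, to 12, 27 and 34 reads. The part of these differences in the results below was not tested. A single library a group allows neither a replicate check nor a p-value, and every interval covers counting error only. In bulk RNA, fewer cells of a kind and less RNA per cell cannot be told apart.

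Levels are given as CPM, the reads of a gene divided by the library size and multiplied by 1000000, where TMM, a trimmed-mean correction for library composition, has scaled the library size. Ratios are log2 ratios of CPM with a 95% counting interval. A gene counted as measured in a comparison when it had at least 20 reads over both libraries. It was then called when it differed by 1.5-fold or more, and called beyond counting error when its interval also left out 0. Whether an interval leaves out 0 depends on read depth, and the shares over all genes given below were not matched for depth. A stricter rule asked for a difference of 2-fold or more and for 100 or more reads in either library. Of the 45 genes, 35 had at least 20 reads over the 3 libraries, 10 had fewer (0 to 19), and 9 reached 100 reads in any library. The number with at least 20 reads in the library itself was 13 for M2, 19 for labelled LINC00273 overexpression and 24 for the control. Over all genes it was 5526, 6511 and 6805, from libraries of unequal size.

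The windows before the start of 5 of those 9 genes are shown because the comparisons turn on them: ABCE1 and ABCD3, which were higher in the M2 library, ABCF3 and ABCA1, which were lower, and ABCF2, which stood between. Each run is the 250 bases before the RefSeq start on GRCh38.p14, from RefSeq, read 5′ to 3′ on the gene's own strand. The deposited reads were counted on hg19, and the windows were matched by symbol. Capitals mark a match on either strand to the GC box GGGCGG, the CCAAT box CCAAT, the E-box CACGTG, the cAMP response element TGACGTCA or the nuclear receptor half-site AGGTCA. None of these overlapped another in the windows shown.
ABCE1, chr4:145098061-145098310, plus strand: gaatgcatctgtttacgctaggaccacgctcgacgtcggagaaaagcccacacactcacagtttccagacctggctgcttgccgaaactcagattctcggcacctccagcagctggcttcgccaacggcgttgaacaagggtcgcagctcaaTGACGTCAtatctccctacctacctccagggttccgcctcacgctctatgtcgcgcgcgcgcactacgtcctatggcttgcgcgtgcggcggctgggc
ABCD3, chr1:94418139-94418388, plus strand: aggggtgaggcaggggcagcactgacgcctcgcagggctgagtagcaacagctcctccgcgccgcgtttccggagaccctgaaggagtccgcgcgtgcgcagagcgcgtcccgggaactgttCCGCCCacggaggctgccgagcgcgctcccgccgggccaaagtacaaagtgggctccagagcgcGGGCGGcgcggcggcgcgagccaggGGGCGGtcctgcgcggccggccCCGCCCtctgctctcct
ABCF2, chr7:151227206-151227455, minus strand: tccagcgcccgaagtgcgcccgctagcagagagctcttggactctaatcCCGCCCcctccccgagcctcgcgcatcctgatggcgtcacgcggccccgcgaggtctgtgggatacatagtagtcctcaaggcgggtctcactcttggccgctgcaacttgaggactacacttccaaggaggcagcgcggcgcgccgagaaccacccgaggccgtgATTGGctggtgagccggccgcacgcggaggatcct
ABCF3, chr3:184185949-184186198, plus strand: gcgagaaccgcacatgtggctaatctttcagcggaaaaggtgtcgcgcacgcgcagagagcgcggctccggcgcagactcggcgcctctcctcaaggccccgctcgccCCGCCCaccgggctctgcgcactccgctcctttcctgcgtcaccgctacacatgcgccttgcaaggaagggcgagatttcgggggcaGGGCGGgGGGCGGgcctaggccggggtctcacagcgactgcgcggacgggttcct
ABCA1, chr9:104928156-104928405, minus strand: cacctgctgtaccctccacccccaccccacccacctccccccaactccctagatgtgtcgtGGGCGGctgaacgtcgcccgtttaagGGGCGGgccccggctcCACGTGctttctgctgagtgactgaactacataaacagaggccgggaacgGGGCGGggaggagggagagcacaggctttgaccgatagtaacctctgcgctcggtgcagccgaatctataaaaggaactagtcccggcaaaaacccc

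The RefSeq table held such a window for 35 of the 45 genes. Their median GC content was 61.6%, against 58% over all 35116 windows. A cAMP response element occurred in 1.65% of all windows and in 1 of the 35, that of ABCE1, which had no GC box, CCAAT box or E-box. GC boxes occurred in 42.6% of all windows and in 18 of the 35, with 4 in the ABCD3 window, 3 in that of ABCF3, 3 in that of ABCA1 and 1 in that of ABCF2. The CCAAT box was in 32.0% of all windows and in 6 of the 35, the E-box in 6.34% and in 4, and the half-site in 12.1% and in 1, ABCF1. A G-quadruplex motif, the 4-run G pattern sought on both strands, was in 23.5% of all windows and in 7 of the 35, ABCF3 and ABCA1 among them. These matches describe letters and not binding.

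Per kilobase of exon, ABCE1, the protein that splits the ribosome after a round of translation, had the highest level of the family in every library: 76.3 CPM per kilobase with M2, 43.6 with labelled LINC00273 overexpression and 27.1 in the control. Of the other genes past 100 reads that are reported singly, ABCF2 came next in the M2 library at 14.9, then ABCD3 at 13.1, ABCF3 at 6.48, ABCC5 at 3.54, ABCF1 at 2.501, ABCA2 at 1.85 and ABCA1 at 0.827. The library labelled LINC00273 overexpression had the same order, with 10.1 for ABCF2, 9.44 for ABCD3, 5.98 for ABCF3, 2.82 for ABCC5, 2.56 for ABCF1, 1.81 for ABCA2 and 0.818 for ABCA1. In the control ABCF2 was at 18.0, followed by ABCF3 at 11.9, ABCD3 at 5.96, ABCF1 at 3.83, ABCC5 at 3.10, ABCA2 at 2.22 and ABCA1 at 1.71. In the M2 and labelled LINC00273 libraries the neighbours ABCF2 and ABCD3, ABCC5 and ABCF1, and ABCF1 and ABCA2 did not differ beyond counting error. In the control that held for ABCF1 and ABCC5, and for ABCA2 and ABCA1. Among the other 36 genes the highest level per kilobase was that of ABCD2, at 1.13, 1.12 and 1.201, and their median was 0.135, 0.338 and 0.230 in the M2, labelled LINC00273 and control libraries.

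**Figure D1:**
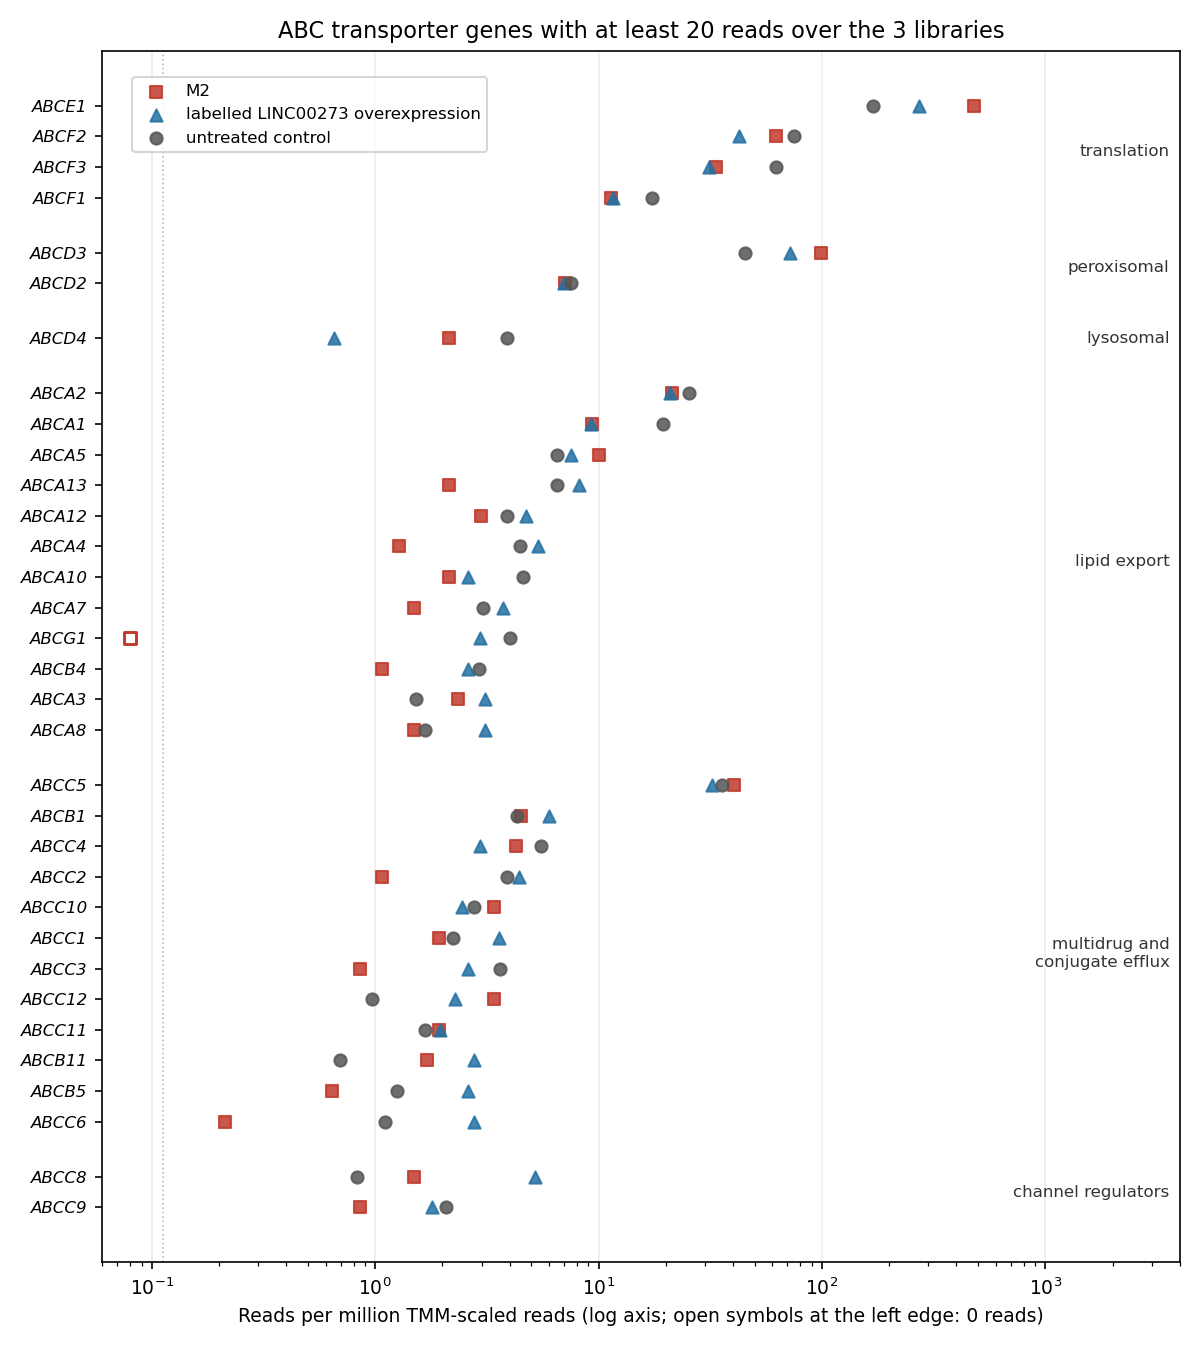
Level of 33 ABC genes with at least 20 reads over the 3 libraries, grouped by role, in CPM (reads per TMM-scaled library size) on a log axis; squares are M2, triangles labelled LINC00273 overexpression, circles the untreated control, 1 library each, and an open symbol at the left edge means 0 reads. ABCE1 lies at 478, 273 and 170.1 CPM, above every other gene in each library, and ABCG1 had 0 reads in the M2 library.

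M2-treated spheres were compared with untreated spheres to ask how ABC gene expression differed after 24 h of the compound. ABCE1 and ABCD3 were 2.81-fold and 2.19-fold higher in the M2 library, and ABCA1 was 2.07-fold lower. The cholesterol exporter ABCG1 had no read in the M2 library, and ABCF3 and ABCA13 were also lower beyond counting error. Centred on genes of like GC content, ABCE1, ABCD3 and ABCF3 were at log2 ratios of 0.85, 0.40 and −0.25, the last 2 under 1.5-fold. ABCA1, ABCA13 and ABCG1 stayed lower beyond counting error. The drug pump ABCB1 had few reads and a ratio near 0. Of the 28 measured genes, 6 (21.4%) were higher and 12 (42.9%) lower by 1.5-fold or more, where 24.8% of all 7988 measured genes were higher and 31.4% lower. Beyond counting error 3 were higher (18.5% of all measured genes) and 4 lower (16.1%), together 7 of 28 (25.0%), against 34.6% of all. By the stricter rule 3 of 9 were higher (17.4% of 3805 genes) and 1 lower (8.88%). After the centring 0 were higher by that rule (6.46% of all) and 1 lower (4.76%). The median log2 ratio of the 28 was −0.33, with 18 below 0, against −0.15 over all measured genes. Scaled to total reads, 4 were higher and 3 lower beyond counting error, and by the stricter rule 3 were higher and 0 lower.

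The library labelled LINC00273 overexpression was compared with the same control, since the title links that RNA to stemness and drug resistance. ABCE1 and ABCD3 were higher here too, by 1.61-fold and 1.59-fold, as was ABCC8, the sulfonylurea receptor of potassium channels, on few reads. Centred on genes of like GC content, ABCE1 and ABCD3 were under 1.5-fold in this comparison, at log2 ratios of 0.31 and 0.24. ABCA1, ABCF2, ABCF3 and the lysosomal ABCD4 were lower beyond counting error. None of the 12 measured multidrug and conjugate pumps passed that rule. Of the 34 measured genes, 11 (32.4%) were higher and 6 (17.6%) lower by 1.5-fold or more, where 21.7% of all 8828 measured genes were higher and 25.2% lower. Beyond counting error 4 were higher (11.0% of all) and 4 lower (15.8%), together 8 of 34 (23.5%), against 26.8% of all. The stricter rule called 0 of 9 higher (5.18% of 3842 genes) and 1 lower (6.61%), ABCA1. The median log2 ratio was 0.22, with 15 of 34 below 0, against −0.08 over all measured genes. Scaled to total reads, 19 were higher and 1 lower by 1.5-fold or more, 5 and 0 beyond counting error, and 3 and 0 by the stricter rule. Both comparisons use the same control library, so that its counting error enters both.

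**Figure D2:**
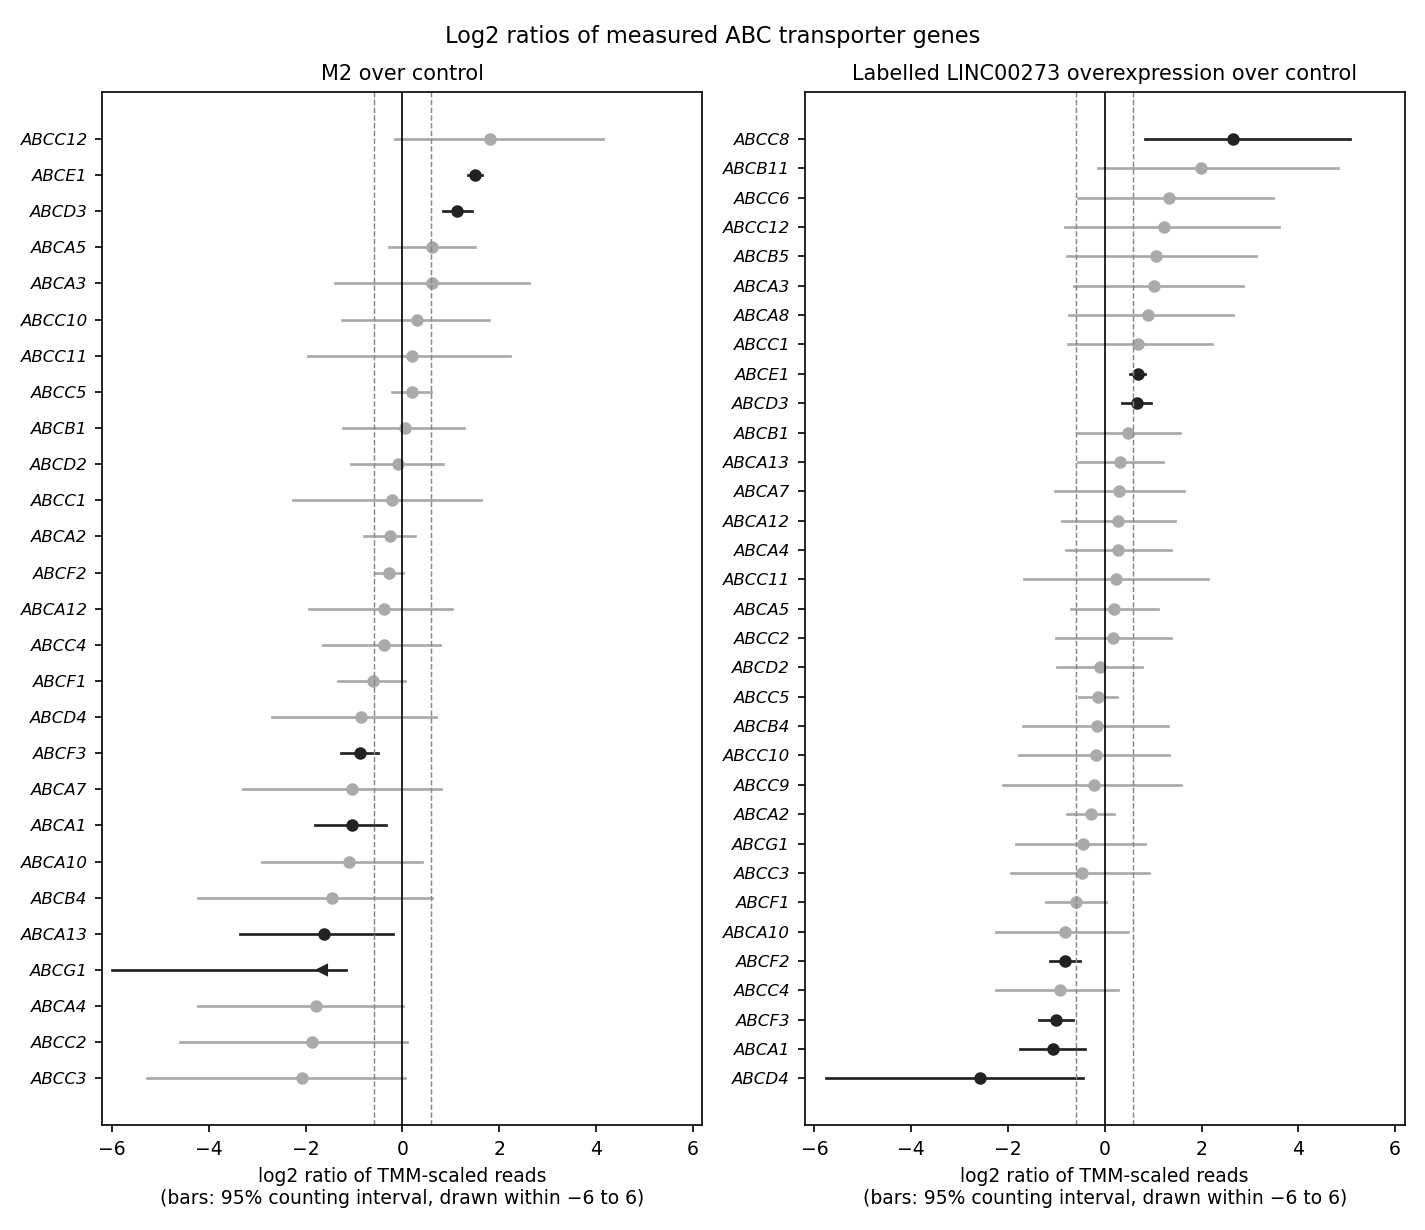
Log2 ratio of each measured ABC gene for M2 over control on the left (27 genes) and labelled LINC00273 overexpression over control on the right (33 genes), sorted by ratio; bars are 95% counting intervals, dashed lines mark 1.5-fold, black marks genes past 1.5-fold with an interval that leaves out 0, and the arrowhead is the bound for a gene with 0 reads. On the left ABCE1 and ABCD3 have short intervals above 0, while ABCC12 has the highest ratio, 1.81, with an interval that includes 0.

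The translation group carried most of the family's reads: 59.5% of them with M2, 51.3% with labelled LINC00273 overexpression and 54.2% in the control. ABCE1 had 2241 reads with M2, 1677 with labelled LINC00273 overexpression and 1226 untreated, and made up 48.6%, 39.1% and 28.4% of the family. Its log2 ratio to the control was 1.49 (1.35 to 1.64) with M2 and 0.68 (0.53 to 0.84) with labelled LINC00273 overexpression, and M2 over labelled LINC00273 overexpression was 0.81 (0.68 to 0.94). The 3 libraries are thus in the order M2, labelled LINC00273 overexpression, control for this gene. ABCE1 exons overlap those of OTUD4 (596, 420 and 205 reads) and ANAPC10 (111, 135 and 69) on the other strand, and the strand setting of the counting is not given in the sources used here.

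The F members, which like ABCE1 are soluble, had log2 ratios below 0 in both comparisons under every scaling tried, though not for ABCF2 with M2 after GC centring. ABCF3 had 158 reads with M2, 191 with labelled LINC00273 overexpression and 448 in the control, log2 ratios of −0.88 (−1.27 to −0.51) and −0.998 (−1.36 to −0.65). ABCF2 had 291, 260 and 541 reads in the M2, labelled LINC00273 and control libraries, with log2 ratios to the control of −0.27 (−0.57 to 0.02) and −0.83 (−1.14 to −0.52), of which the second lay beyond counting error. ABCF1, which binds the initiation factor eIF2, had 53, 71 and 125 reads and log2 ratios of −0.62 (−1.33 to 0.06) and −0.58 (−1.22 to 0.03), neither beyond counting error. After centring on genes of like GC content the M2 ratios of ABCF1, ABCF2 and ABCF3 were −0.07, 0.25 and −0.25, so that the sign for ABCF2 turned, and those with labelled LINC00273 overexpression were −0.15, −0.44 and −0.50. All of these are under 1.5-fold, so that no F member was called in either comparison after centring.

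ABCE1 and the F proteins work with release, recycling and initiation factors, and 17 of these were measured. This list, like the other lists of partner genes below, was chosen with earlier results of these data known. Its counts are thus a description and no independent test. With M2 9 of the 17 were higher and 2 lower beyond counting error, where 18.5% of all measured genes were higher and 16.1% lower, and the median log2 ratio was 0.81. With labelled LINC00273 overexpression 5 were higher and 2 lower, where 11.0% and 15.8% of all were, and the median was 0.13. EIF3A, the scaffold subunit of initiation factor eIF3, had 1058 reads with M2, 878 with labelled LINC00273 overexpression and 483 in the control (log2 ratios 1.75 and 1.09). EIF3J, a loosely bound subunit of the same factor, had 597, 519 and 304 reads (1.59 and 1.003). EIF2S3, a subunit of eIF2, had 847, 785 and 492 reads (1.41 and 0.91). The release factor ETF1 had 9237, 8219 and 6333, with 1.17 in the M2 comparison. ETF1 was also higher beyond counting error with labelled LINC00273 overexpression. EIF2D, a recycling factor, was lower with labelled LINC00273 overexpression, at 61 reads against 127 in the control (−0.83). It was lower beyond counting error with M2 too, at 50 reads. Centred on GC content, the medians of the 17 were 0.33 and −0.08. The genes named, which are among the largest changes of the list, stayed past 1.5-fold where a ratio is given above. EIF3A was at 1.57 with M2 and 1.04 with labelled LINC00273 overexpression, EIF3J at 0.90 and 0.64, and EIF2S3 at 1.13 and 0.74. ETF1 was at 1.08 with M2, and EIF2D at −0.88 with labelled LINC00273 overexpression.

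The mitochondrial members ABCB6, ABCB8 and ABCB10 were all under 20 reads over the 3 libraries. ABCB8 had 4 reads with M2, 6 with labelled LINC00273 overexpression and 8 in the control, ABCB10 had 1, 2 and 3, and ABCB6 had none in any library. Among 10 measured genes of iron-sulfur cluster and heme synthesis, 2 were higher and 1 lower beyond counting error with M2, shares near those of all measured genes (18.5% and 16.1%). Of these the chaperone HSPA9 had 2103 reads with M2 and 2115 in the control (log2 ratio 0.61), and NFS1, which supplies the sulfur, had 39 and 108 (−0.85). With labelled LINC00273 overexpression 0 of 11 were higher (11.0% of all) and 3 lower (15.8%), among them NFS1 at 33 reads (−1.48) and the iron importer SLC25A28 at 558 reads against 1089 in the control (−0.73). The medians of the list were −0.09 with M2 and −0.11 with labelled LINC00273 overexpression, and 0.41 and 0.0064 after GC centring, which put HSPA9 at 0.53 and SLC25A28 at −0.38, both under 1.5-fold.

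ABCD3, a peroxisomal membrane transporter for branched-chain and dicarboxylic acyl-CoA, had 465 reads with M2, 440 with labelled LINC00273 overexpression and 326 in the control. Its log2 ratios to the control were 1.13 (0.84 to 1.43) and 0.66 (0.37 to 0.97). After GC centring they were 0.40 and 0.24, under 1.5-fold in both comparisons. M2 over labelled LINC00273 overexpression was 0.47 (0.20 to 0.74), under 1.5-fold. ABCD2, which carries very-long-chain acyl-CoA, had 33, 43 and 54 reads in the M2, labelled LINC00273 and control libraries, and log2 ratios of −0.09 (−1.07 to 0.85) and −0.10 (−0.98 to 0.78). Of 14 measured genes of peroxisome import and beta-oxidation, 2 were higher and 2 lower beyond counting error with M2, near the shares of all measured genes (18.5% and 16.1%), and 2 higher (11.0% of all) and 1 lower (15.8%) with labelled LINC00273 overexpression. The acyl-CoA synthetase ACSL4 had 1181, 1460 and 682 reads (log2 ratios 1.41 and 1.33) and the import receptor PEX5 136, 152 and 320 (−0.61 and −0.84). After GC centring ACSL4 was at 0.62 and 0.94, and PEX5 at −0.08 and −0.43, under 1.5-fold.

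ABCD4, which helps vitamin B12 out of the lysosome, had 10 reads with M2, 4 with labelled LINC00273 overexpression and 28 in the control, and its log2 ratios were −0.86 (−2.69 to 0.69) and −2.58 (−5.76 to −0.45). ABCB9, a lysosomal peptide transporter, had 2, 6 and 4 reads. In the authors' deposited table of genes listed as changed with labelled LINC00273 overexpression, ABCD4 was 1 of 2 ABC genes among 809, with a ratio of 0.177.

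The 17 lipid transporters held 267 reads with M2, 477 with labelled LINC00273 overexpression and 640 in the control, or 57.0, 77.7 and 88.8 CPM. That was 5.79%, 11.1% and 14.8% of a family whose sum also differed between the libraries. Of 11 measured with M2, 2 were higher and 7 lower by 1.5-fold or more, where 24.8% of all measured genes were higher and 31.4% lower. Beyond counting error 0 were higher and 3 lower, where 18.5% and 16.1% of all were. The median log2 ratio was −1.05, with single values between −1.79 and 0.62. Of 12 measured with labelled LINC00273 overexpression, 2 were higher and 2 lower by 1.5-fold (21.7% and 25.2% of all), 1 of the lower ones beyond counting error (15.8% of all), and the median was 0.24.

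ABCA1 loads cholesterol and phospholipid onto apolipoprotein A-I. It had 44 reads with M2, 57 with labelled LINC00273 overexpression and 140 in the control, and log2 ratios of −1.05 (−1.81 to −0.34) and −1.06 (−1.75 to −0.42). M2 and labelled LINC00273 overexpression lay close together and both below the control, and GC centring left ABCA1 at −1.09 and −1.08. Its 2-fold call lay at the threshold: with M2 it was lost under DESeq2 size factors, under total reads, under the scaling of the deposited values and with a prior of 5 reads, and with labelled LINC00273 overexpression under total reads and the deposited scaling. ABCG1, which passes cholesterol on to high-density lipoprotein, had 0, 18 and 29 reads in the M2, labelled LINC00273 and control libraries. At the floor of 3 fragments, 1.28 CPM in the M2 library, that is at least 3.14-fold lower with M2 than the level measured in the control. With the counting error of the control included, the log2 ratio lay below −1.17, while the ratio with labelled LINC00273 overexpression was −0.46 (−1.84 to 0.84).

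ABCA2, an endosomal and lysosomal lipid transporter, had 100, 128 and 184 reads and log2 ratios of −0.26 (−0.79 to 0.25) and −0.29 (−0.78 to 0.18), both including 0. ABCA13, the longest protein of the A group, had 10 reads with M2, 50 with labelled LINC00273 overexpression and 47 in the control, log2 ratios of −1.61 (−3.36 to −0.19) and 0.32 (−0.55 to 1.198). ABCA4, the retinal flippase, had 6, 33 and 32 reads, with −1.79 (−4.21 to 0.01) for M2 over control and −2.07 (−4.49 to −0.27) for M2 over labelled LINC00273 overexpression. Both of these genes were low in the M2 library alone. ABCA5 and ABCA10 lie in the A-group cluster of chromosome 17 and have exons that overlap on 1 strand in the annotation, so that their counts are uncertain. ABCA5 had 47, 46 and 47 reads (M2 log2 ratio 0.62, −0.27 to 1.51) and ABCA10 had 10, 16 and 33 (−1.10, −2.90 to 0.40). Without GC centring neither differed from the control beyond counting error. After it ABCA10 was lower beyond counting error with M2, at −1.91, and the sign for ABCA5 turned, to −0.18. ABCA8, of the same cluster, had 7, 19 and 12 reads. ABCA12, needed for the lipid barrier of skin, had 14, 29 and 28 reads, and the phospholipid exporter ABCA7 had 7, 23 and 22. Both were lowest with M2. ABCA3, which fills the lamellar bodies of lung, had 11, 19 and 11, and ABCB4, which moves phosphatidylcholine into bile, had 5, 16 and 21. None of the ratios of these last 4 genes to the control left out 0. The other lipid transporters were under 20 reads over the 3 libraries. ABCA6 had 0, 2 and 6 reads, ABCA9 had 4, 6 and 5, and ABCG4 had 2, 2 and 7. ABCG5 and ABCG8, which pair to export plant sterols, had 0, 9 and 10 and 0, 4 and 6 reads.

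Of 12 measured genes of sterol sensing and efflux around ABCA1 and ABCG1, 0 were higher (18.5% of all measured genes) and 4 lower (16.1%) beyond counting error with M2, with a median log2 ratio of −0.69. Among them were LPCAT3, an acyltransferase that is a target of the sterol sensor LXR, at 29, 59 and 118 reads (−1.40 with M2, −0.77 with labelled LINC00273 overexpression), and SREBF2, the regulator of cholesterol synthesis, at 85, 166 and 284 reads (−1.12 with M2). With labelled LINC00273 overexpression 0 of 11 were higher (11.0% of all) and 2 lower (15.8%), and the median was −0.54. Centred on GC content the medians were −0.09 and −0.16. LPCAT3 was then at −0.90 and −0.36 and SREBF2 at −0.58 with M2, of which the last 2 values are under 1.5-fold.

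The 13 multidrug and conjugate pumps summed to 64.4 CPM with M2, 68.4 with labelled LINC00273 overexpression and 64.4 in the control. ABCC5 alone held 190 of their 302 reads with M2, 198 of 420 with labelled LINC00273 overexpression and 256 of 464 in the control. At 40.5, 32.3 and 35.5 CPM it set much of the sum, which thus says little about the other pumps. Of 9 measured with M2, 1 was higher and 2 lower by 1.5-fold or more, where 24.8% and 31.4% of all measured genes were. Of 12 measured with labelled LINC00273 overexpression 5 were higher and 1 lower, where 21.7% and 25.2% of all were. No pump differed from the control beyond counting error, where 34.6% of all measured genes did with M2 and 26.8% with labelled LINC00273 overexpression. All pumps but ABCC5 had under 100 reads in every library, and these shares are not those of genes of like depth. The lack of calls thus does not show that the pumps were steady. After GC centring ABCC12 with M2 did so, at 2.27. ABCC5, which exports cyclic nucleotides, was the one pump past 100 reads, at 190, 198 and 256 in the M2, labelled LINC00273 and control libraries. Its log2 ratios were 0.19 (−0.21 to 0.59) and −0.14 (−0.53 to 0.25). Without GC centring these intervals include 0 and reach no further from it than 0.59. After centring the ratios were 0.58 and 0.12, and the M2 interval, moved by the same offset, left out 0. The M2 ratio then lay just under 1.5-fold.

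ABCB1, P-glycoprotein, had 21 reads with M2, 37 with labelled LINC00273 overexpression and 31 in the control, log2 ratios of 0.06 (−1.22 to 1.28) and 0.49 (−0.57 to 1.56). ABCC1, an exporter of glutathione conjugates, had 9, 22 and 16 reads, with −0.21 (−2.27 to 1.63) and 0.69 (−0.76 to 2.21). With M2 the intervals of both genes reach past 2-fold in both directions, so that a 2-fold difference was not detectable at this depth. With labelled LINC00273 overexpression they reach past 2-fold higher but not 2-fold lower. ABCG2, named outside the rule because it is the pump most tied to stem-like cells, had 0, 11 and 6 reads. Its 0 in the M2 library leaves room for a level of 1.28 CPM.

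ABCC2 and ABCC3, conjugate exporters of liver and gut, were low with M2. ABCC2 had 5, 27 and 28 reads, with −1.86 (−4.60 to 0.10) for M2 over control and −2.04 (−4.79 to −0.07) for M2 over labelled LINC00273 overexpression. ABCC3 had 4, 16 and 26 reads, with −2.08 (−5.27 to 0.06) for M2 over control. Against the control both intervals just include 0. ABCC4, which carries cyclic nucleotides and prostaglandins, had 20, 18 and 40 reads in the M2, labelled LINC00273 and control libraries, and −0.92 (−2.24 to 0.28) with labelled LINC00273 overexpression. ABCC12 had the highest M2 ratio of the family on few reads, 16, 14 and 7, at 1.81 (−0.16 to 4.15). ABCB11, the bile salt export pump, had 8, 17 and 5 reads, with 1.997 (−0.15 to 4.82) for labelled LINC00273 overexpression over control. These 3 ratios were not beyond counting error. The remaining pumps were ABCC10 with 16, 15 and 20 reads, ABCC11 with 9, 12 and 12, ABCB5 with 3, 16 and 9, and ABCC6 with 1, 17 and 8. ABCC6, like ABCF2, has pseudogenes it could share reads with, so that its count is uncertain; the 16 other ABC genes of the tables, mostly pseudogenes, held at most 6 reads each in any library. ABCC11 exons overlap those of LONP2 (118, 90 and 231 reads) on the other strand. ABCC6 was the sole ABC gene among 670 in the authors' deposited table for M2, at a ratio of 0.202, on 1 read against 8 in the control.

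ABCC8, the sulfonylurea receptor of pancreatic beta cells and neurons, had 7 reads with M2, 32 with labelled LINC00273 overexpression and 6 in the control. Its log2 ratio with labelled LINC00273 overexpression was 2.65 (0.84 to 5.07), 6.26-fold, and M2 over labelled LINC00273 overexpression was −1.80 (−4.01 to −0.09). The labelled LINC00273 library thus stood above both others for this gene. It was also listed in the authors' deposited table of that comparison, at a ratio of 6.61. Its relative ABCC9 had 4, 11 and 15 reads and a log2 ratio of −0.22 (−2.11 to 1.57) with labelled LINC00273 overexpression.

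Of 12 measured regulators of drug efflux and conjugation partners, 5 were higher (18.5% of all measured genes) and 0 lower (16.1%) beyond counting error with M2, with a median log2 ratio of −0.03. RDX, which ties efflux pumps to the cell cortex, had 2892, 2403 and 1846 reads (1.27 with M2 and 0.61 with labelled LINC00273 overexpression). GCLC, the catalytic subunit of glutathione synthesis, had 262, 216 and 183 reads (1.14 with M2), and its partner GCLM had 440, 286 and 654 (−0.96 with labelled LINC00273 overexpression). SLC7A11, the cystine importer, had 156, 92 and 120 reads (0.9998 with M2), and NFE2L2, a regulator of glutathione genes, had 155, 158 and 122 (0.97 and 0.60). HIF1A, the hypoxia regulator, had 1156, 1296 and 999 reads (0.61 with labelled LINC00273 overexpression), and was higher beyond counting error with M2 too. With labelled LINC00273 overexpression 3 of 14 were higher (11.0% of all) and 1 lower (15.8%), the median being −0.20. After GC centring RDX was at 0.59 with M2 and 0.23 with labelled LINC00273 overexpression, SLC7A11 at 0.23 with M2 and HIF1A at 0.16 with labelled LINC00273 overexpression, while GCLC stayed at 1.07, NFE2L2 at 0.97 and 0.64 and GCLM at −1.37. The ABC-fold genes that carry other symbols were low: TAP1, a peptide transporter of antigen presentation, had 8, 12 and 18 reads, its partner TAP2 had 0, 0 and 4, and the chloride channel CFTR had 10, 20 and 17.

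Summed over all 45 genes, the family reached 984 CPM with M2, 698 with labelled LINC00273 overexpression and 598 in the control, log2 ratios to the control of 0.72 (0.63 to 0.80) and 0.22 (0.14 to 0.31). ABCE1 set much of this. Without it the ratios were 0.24 (0.13 to 0.35) and −0.011 (−0.12 to 0.096), on 505 and 425 CPM against 428 in the control. The 36 genes under 100 reads in every library summed to 300 reads with M2, 630 with labelled LINC00273 overexpression and 649 in the control, or 64.0, 103 and 90.03 CPM. Their log2 ratio with M2 was −0.49 (−0.78 to −0.21), where 14249 other protein-coding genes under the same limit gave −0.15, and with labelled LINC00273 overexpression it was 0.19 (−0.04 to 0.42), against 0.08. In the M2 library 6 of the 45 genes had 0 reads, against 1 in each of the other libraries. The M2 library was also the smallest after TMM scaling, at 4686051 reads against 6139145 and 7208511.

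**Figure D3:**
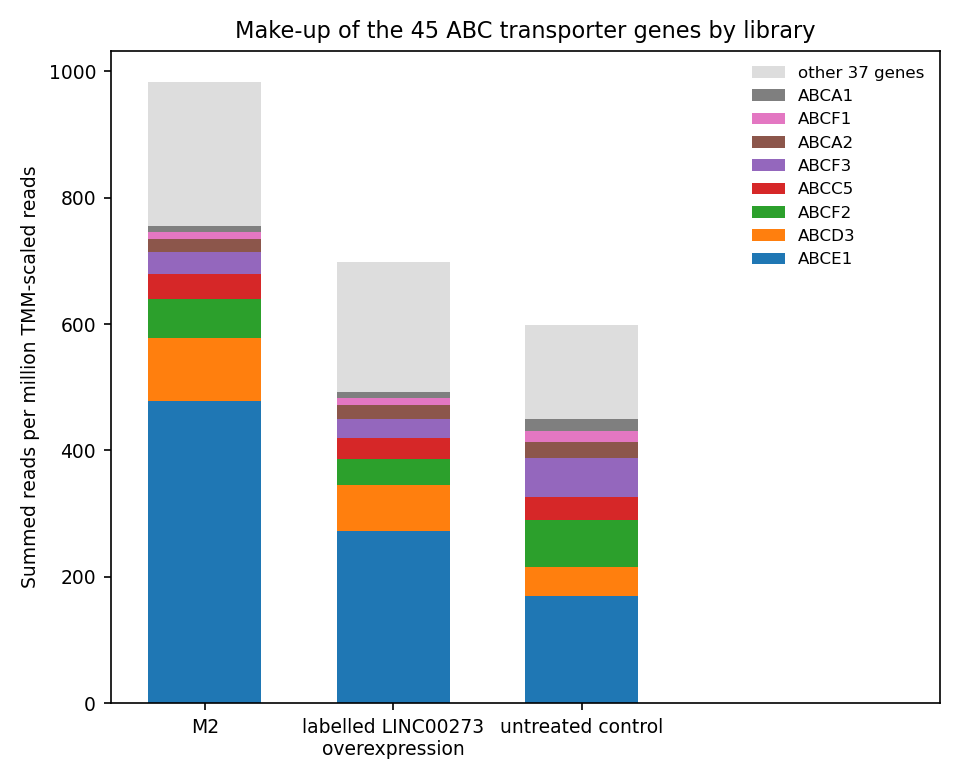
Summed CPM of the 45 ABC genes in the M2 library, the library labelled LINC00273 overexpression and the untreated control, stacked by gene for 8 genes with at least 100 reads in any library and pooled for the other 37. The bars reach 984, 698 and 598, and the ABCE1 segment is 478, 273 and 170.1 of these.

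Compared directly, M2 over labelled LINC00273 overexpression had 29 measured genes with a median of −0.03, against 0.11 over all 7824 measured genes. By 1.5-fold or more 2 were higher (17.9% of all) and 11 lower (21.6%). Beyond counting error 2 were higher (12.0% of all), ABCE1 among them, and ABCA4, ABCA13, ABCC2 and ABCC8 lower (6.43%). After GC centring 0 were higher (5.92% of all), with ABCE1 at 0.45, and the same 4 genes were lower (7.68%). By the stricter rule 0 of 7 were called, where 3.11% of all such genes were.

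The direction of a ratio in these libraries went with GC content over all genes, and the called ABC genes were spread along that axis. Split into 5 equal groups by rising GC content, all measured genes had median log2 ratios of 0.70, 0.33, −0.15, −0.50 and −0.63 with M2; with labelled LINC00273 overexpression the medians were 0.37, 0.16, −0.17, −0.39 and −0.37. Across genes, Spearman's rho of ratio with GC content was −0.50 and −0.34 over all measured genes, and −0.22 and −0.07 over the 28 and 34 ABC genes, which share the same libraries. ABCD3 and ABCE1 had 37.6% and 38.4% GC, and ABCF2, ABCF1 and ABCF3 had 52.2%, 52.9% and 56.3%. Centred on 201 genes of like GC content, ABCE1 and ABCD3 were at 0.85 and 0.40 with M2 and at 0.31 and 0.24 with labelled LINC00273 overexpression. Beyond counting error that left 3 higher (12.9% of all), ABCC12 and ABCE1 among them, and ABCA1, ABCA10, ABCA13 and ABCG1 lower (10.1%) with M2, and ABCC8 higher (9.15%) and ABCA1 and ABCD4 lower (9.67%) with labelled LINC00273 overexpression. By the stricter rule centring left 0 genes higher with M2 (6.46% of all) and 1 lower (4.76%), ABCA1. That gene, at 45.5% GC, was thus lower beyond counting error with and without this centring in both comparisons, though not with labelled LINC00273 overexpression under total reads.

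**Figure D4:**
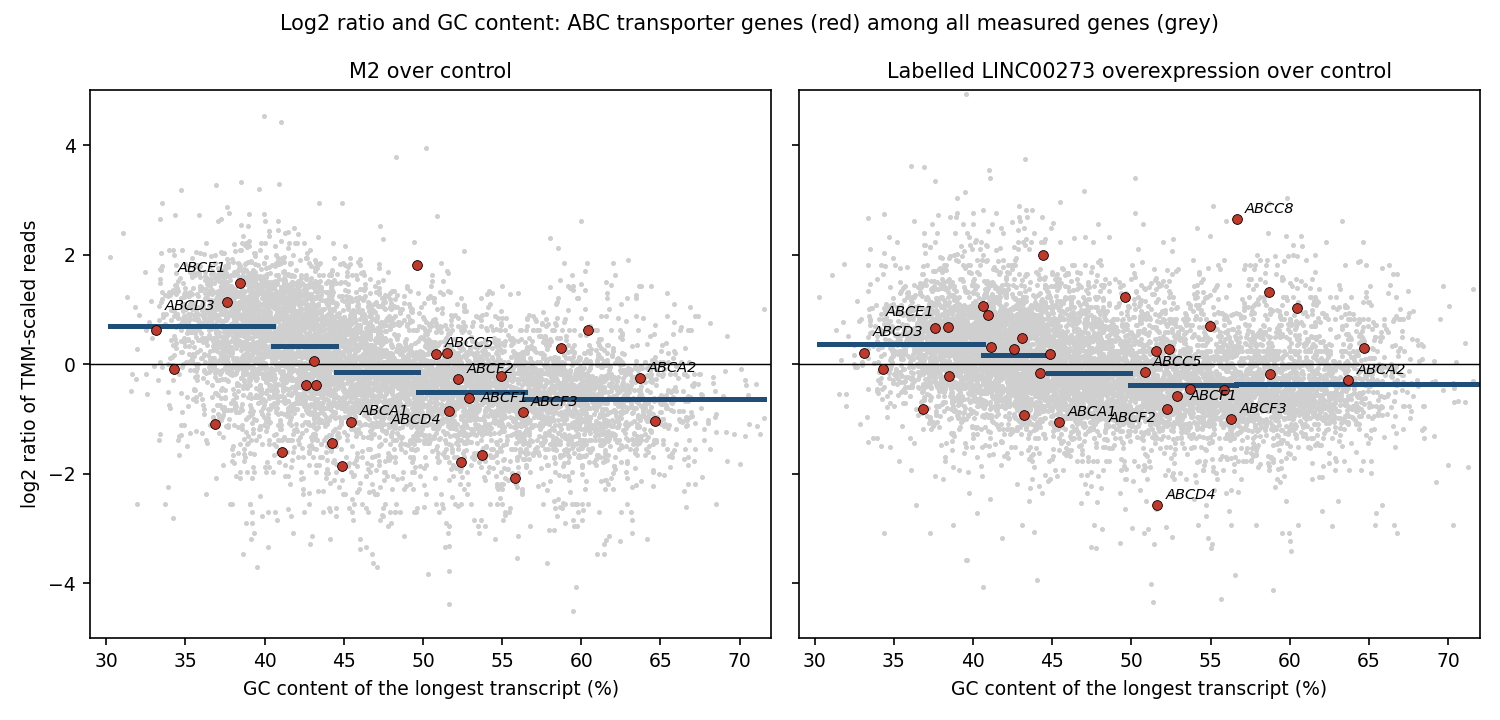
Log2 ratio of TMM-scaled reads against the GC content of the longest transcript, M2 over control on the left and labelled LINC00273 overexpression over control on the right; grey points are all measured genes, red points the ABC genes reported singly, and blue bars the medians of 5 equal groups of genes by GC content. ABCE1 and ABCD3 lie in the group of lowest GC content, whose median was 0.70 with M2 and 0.37 with labelled LINC00273 overexpression, and ABCA1 lies below the bar of its group in both panels.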

How the data were processed

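Total RNA was depleted of ribosomal RNA (RiboCop) and sequenced as paired-end reads, per the labels. The submitters' processing notes name hg19 and, with no roles or settings, DESeq2, featureCounts 1.5.2, STAR, Bowtie2 2.2.4 and Trimmomatic. Annotation, strand setting and the handling of multimapping reads were not given in the sources used here. The deposited signal per gene is a read count divided by 1 factor per library: dividing by its smallest step gave whole reads for 100% of values within 0.01. The design had assumed counts, and these reads took their place. The ratio and log2 columns in the tables deposited by the authors compare the scaled signal, and are quoted for 3 genes.

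Of genes under 20 reads, 85.8% (M2), 80.5% (labelled LINC00273 overexpression) and 82.3% (control) had an even number, so fragments were taken as reads divided by 2. TMM (edgeR 4.0.16 in R 4.3.3) gave effective library sizes of 4686051, 6139145 and 7208511. Exact binomial (Clopper-Pearson) 95% intervals of the split of fragments cover counting error only, since PCR copies are not independent molecules. A gene with 0 reads was set to 3 fragments (6 reads), as a bound. Since 1 library per group leaves no residual degrees of freedom, neither edgeR nor DESeq2 tested any gene. Exon length and GC content came from GENCODE 29 on GRCh38, matched by Ensembl ID for 45 of 45 genes (100%). The ratios and intervals were run on simulated fragments drawn from the same counting model that the intervals assume. These held no PCR copies and no variation between libraries of a group, so that the run checks the calculation alone.

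Counts and sums cover all 45 genes, 2 of which are not reported here singly. The 45 genes, the 7 role lists and the 6 lists of other genes were chosen with earlier results of these data known. Named were the members with at least 20 reads over the 3 libraries, and per other list up to 4 genes with at least 100 reads in any library that were called beyond counting error; members with fewer are given by their reads, and ABCG2 was singled out after its values were seen. Alternatives were DESeq2 size factors (DESeq2 1.42.0), total reads, TMM on protein-coding genes or without RN7SL1 and RN7SK, the deposited scaling, other read minimums and folds, a prior of 5 reads, centring on GC content or length, and a protein-coding background.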

Additional observations from a re-analysis of the deposited data

How the results depend on the processing

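No paired analysis was possible because each group has 1 library, and for the same reason no replicate could be left out. Of 106 family values under the alternatives, 85 kept their direction and size, 19 moved and 2 turned sign; of 496 values of single genes, 476 stayed and 20 moved. Scaling to total reads raised all log2 ratios by 0.26 (M2) and 0.52 (labelled LINC00273 overexpression). It put the summed family at 0.97 and 0.74, and the labelled LINC00273 comparison at 19 genes higher and 1 lower past 1.5-fold, 5 and 0 beyond counting error, and 3 by the stricter rule; with M2 it gave 4 higher and 3 lower beyond counting error. By the stricter rule M2 gave 3 higher and 0 lower under DESeq2 size factors, total reads, the deposited scaling and a prior of 5 reads.

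Other counts by the stricter rule, with M2 and then labelled LINC00273 overexpression, were 17 and 12 with no read minimum, 2 and 0 at 500 reads, and 0 and 0 at 4-fold. It called 1 gene with M2 after GC centring, and with labelled LINC00273 overexpression 2 under TMM on protein-coding genes and 0 under the deposited scaling. At 100 reads over both libraries 6 genes were past 1.5-fold in each comparison, and the median with labelled LINC00273 overexpression turned to −0.29 over the fewer genes left. At 2-fold that comparison had 8 genes, 3 of them beyond counting error, and GC centring also left 3 beyond counting error. Without ABCE1, an alternative chosen after seeing the data, the summed family was at 0.24 with M2 and turned to −0.011 with labelled LINC00273 overexpression. The cause of the other shifts was not tested. Depth limits all genes under 100 reads.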
